A study of Mus musculus with 3 samples.

Results

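The immune cells of the inner medulla (IM) were set against those of the cortex in every cell cluster of the deposited count table. Cells were taken by the compartment recorded for each of them, which gave 6005 IM cells and 7508 cortex cells, 13513 of the 20266 cells in the table and 6 of its 9 libraries. The other 3 libraries, from the outer medulla (OM), entered the fits only to help estimate the spread. Both groups came from untreated, wild-type (wt) male C57BL/6J mice of 10 weeks. The kidneys were cut into cortex, OM and IM, digested with enzymes and sorted for live CD45+ cells, CD45 being the surface protein shared by leukocytes. The cells were then profiled on the 10x Genomics droplet platform, with each compartment collected at 3 facilities, giving the Aachen, Bonn and Hamburg datasets. The facility is recorded in the table for every cell, whereas GEO's labels give 1 sample per compartment. All cells of one compartment in one dataset are called a library here, and the cortex and IM libraries of each dataset form the pairs (3 a side). The suffixes of the cell barcodes show that a library need not be one capture: each Aachen compartment carried 2 suffixes (930 and 465 cells in cortex, 1193 and 882 in IM), each Bonn compartment 1 of its own, and the 3 Hamburg compartments carried 1 suffix in common and shared 0 barcodes with each other. Whether a suffix stands for a separate mouse, and how many mice went into a library, is not given in the sources used here, so p-values measure the spread between these libraries. Wild-type animals of a single strain, sex and age limit what the groups stand for.

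The kidney is layered. The cortex holds the glomeruli and most of the proximal tubules, which reabsorb filtered solutes, whereas the IM holds thin limbs and collecting ducts in an interstitium that is salty, urea-rich and poor in oxygen. Its leukocytes include resident macrophages, blood-derived monocytes, conventional dendritic cells (cDCs), T cells, B cells, natural killer (NK) cells and type 2 innate lymphoid cells (ILC2). The cDC1 subset is known for presenting antigen to CD8+ T cells, and the cDC2 subset for presenting antigen to CD4+ T cells.

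The authors' annotation gave 23 clusters, and their names were used as deposited. Defining markers fitted the names: the summed level of T cell markers was 30.2 to 48.8 per 10000 unique molecular identifiers (UMIs, the counted RNA molecules; medians over the 6 libraries) in T_cell_1 to T_cell_4, that of cDC1 markers was 26.6 in cDC1 and 3.2 in cDC2, and that of cDC2 markers was 22.3 in cDC2 and 2.7 in cDC1. The cluster named Undefined held plasma cell markers at a median of 265.2 per 10000 UMIs. Monocytes held monocyte markers at 45.4 and resident macrophage markers at 57.0. Median UMIs per cell were 971 to 1270 in the Aachen libraries compared here and 2938 to 3505 in those of Bonn and Hamburg, and facility and depth moved together. The makeup of the Aachen suffixes differed: T_cell_2 was 15.6% and 2.58% of the cells in cortex and 18.5% and 5.22% in IM, and Macrophage_2 was 6.77% and 24.3% in cortex and 14.2% and 21.7% in IM. Values from Hamburg were not whole numbers (0.118% of nonzero values were whole, exactly), and the step that made them so is not given in the sources used here. Low levels of tubule or other-lineage transcripts in Hamburg can therefore not be set directly against those of Aachen and Bonn, whose values are whole. Library pairs shared 0 to 16 cell barcodes.

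The Bonn IM library stood apart from the other 5 in the tubule transcripts of T and B cells. Its cells carried transcripts of the proximal tubule at 3.36 per 10000 UMIs in T cells and 4.18 in B cells. The Aachen libraries and the Bonn cortex library stood at 0.141 to 0.506 and 0.118 to 0.355. The Hamburg libraries, to which the limit given above applies, stood at 0.0766 to 0.122 and 0.346 to 0.419. This did not hold in Malat+_Macrophage, where the level was 2.91 in Bonn IM, 2.69 in Hamburg cortex and 2.61 in Aachen IM. Kap, a transcript of the proximal tubule that was high in this library, is among the genes called in T_cell_1, Monocyte, B_cell_1, Macrophage_1 and the classes of T cells, B cells, cDCs and resident macrophages, and the counts given for them include it.

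The makeup of the cDCs differed between the compartments by nearly the same amount in each dataset. In cortex, cDC1 cells made up 66.2% of the cDCs in the Aachen dataset (43 of 65 cells), 40.3% in Bonn (56 of 139) and 55.8% in Hamburg (53 of 95). In IM they made up 35.9% (28 of 78), 10.2% (13 of 128) and 24.2% (24 of 99). The cortex and IM values did not overlap, and the share was lower by 30.3, 30.1 and 31.5 percentage points, a mean of 30.6 ± 0.784 (SD, n = 3). Within each dataset the 95% Wilson intervals, which cover counting error only, were also apart: 54.0 to 76.5% against 26.1 to 47.0% in Aachen, 32.5 to 48.6% against 6.03 to 16.6% in Bonn, and 45.8 to 65.4% against 16.9 to 33.5% in Hamburg. An exact permutation test that exchanges cortex and IM within a dataset has 8 arrangements and gave p = 0.25, the smallest value it can give. By barcode suffix, the Aachen values were 76.9% (30 of 39) and 50% (13 of 26) in cortex and 40.0% (18 of 45) and 30.3% (10 of 33) in IM, so both cortex values were above both IM values. The OM libraries were closer to IM, at 20.6%, 14.9% and 26.6%.

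Both subsets also differed as shares of all cells. The cDC1 share was 3.08%, 1.53% and 2.16% in cortex (mean 2.26 ± 0.781, SD, n = 3) and 1.35%, 0.694% and 1.17% in IM (1.07 ± 0.338). The cDC2 share was 1.58%, 2.27% and 1.71% in cortex (1.85 ± 0.364) and 2.41%, 6.14% and 3.65% in IM (4.07 ± 1.90). Every IM value lay below every cortex value for cDC1 and above every cortex value for cDC2. Within Aachen the 2 suffixes were apart for cDC1, at 3.23% and 2.80% in cortex and 1.51% and 1.13% in IM, and overlapped for cDC2, at 0.968% and 2.80% in cortex and 2.26% and 2.61% in IM. In a fit of the cell numbers per cluster with edgeR's quasi-likelihood test and Benjamini-Hochberg adjustment over the 23 clusters, the log2 fold change (IM over cortex) was -1.08 ± 0.54 (SE) for cDC1 (adjusted p = 0.458) and 1.05 ± 0.42 for cDC2 (adjusted p = 0.413), so neither passed an adjusted p of 0.05 in this fit.

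**Figure D1:**
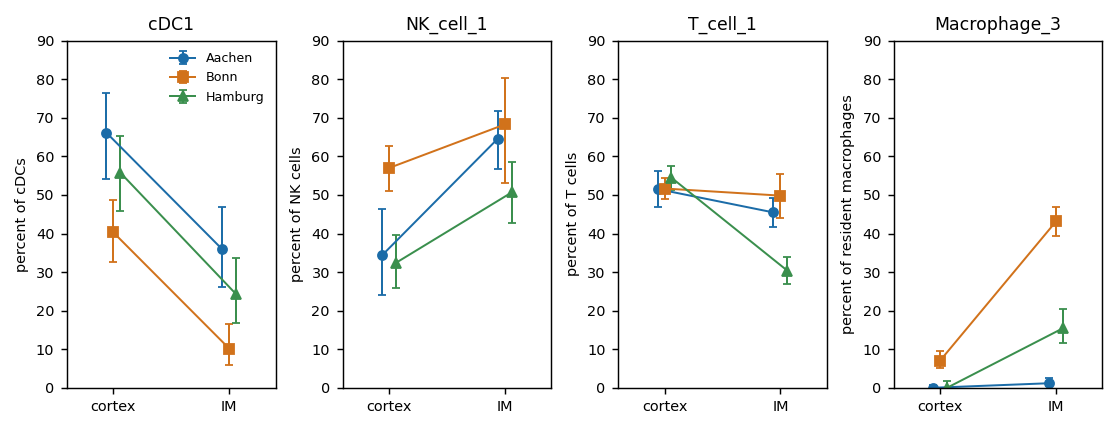
Share of each cluster within its own class (percent, y axis) in the cortex and IM library of each dataset, with a line joining the paired libraries. The cDC1 line falls by 30.1 to 31.5 points in each of the 3 datasets, and the NK_cell_1 line rises by 11.3 to 30.3 points.

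Across the 23 clusters, 0 passed the adjusted threshold (0.0% called), and 2 had an unadjusted p under 0.05, Macrophage_3 and cDC2. The share moved the same way in all 3 datasets in 9 clusters (39.1% of 23): it was higher in IM for Macrophage_3, Malat+_Macrophage, Neutrophils and cDC2, and lower for NK_cell_2, Prolif._cell, T_cell_1, cDC1 and pDC. The other 14 clusters had mixed signs. Macrophage_3 was not found among 1395 Aachen and 2449 Hamburg cortex cells, which allows shares of up to 0.215% and 0.122%, and made up 1.04% of the Bonn cortex. In IM it was 0.337%, 14.8% and 1.94%, which were 7, 277 and 40 cells.

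Among lymphocytes, T_cell_1 made up 15.6%, 16.9% and 22.2% of cortex cells and 14.7%, 7.74% and 9.43% of IM cells in the Aachen, Bonn and Hamburg datasets. The drop was 0.88 points in Aachen, 9.13 in Bonn and 12.7 in Hamburg (adjusted p of the edgeR fit = 0.471), and the Aachen suffixes overlapped, at 16.1% and 14.6% in cortex and 13.4% and 16.6% in IM. Among NK cells the makeup differed: NK_cell_1, the cluster with the higher level of NK markers, was 34.3%, 57.0% and 32.4% of NK cells in cortex and 64.6%, 68.3% and 50.7% in IM, rises of 30.3, 11.3 and 18.3 points (SD of the rise 9.61, n = 3, smallest exact p of 0.25). The Bonn cortex value lay above the Hamburg IM value, so the groups overlapped across datasets, while the Aachen suffixes were apart, at 34.0% and 35.0% in cortex and 69.5% and 58.5% in IM. The Bonn IM value rests on 28 of 41 NK cells. As a share of all cells NK_cell_1 had mixed signs, at 1.65%, 4.23% and 2.33% in cortex and 4.58%, 1.49% and 3.65% in IM. NK_cell_2 was lower in IM in each dataset, at 3.15%, 3.19% and 4.86% in cortex and 2.51%, 0.694% and 3.55% in IM.

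Proliferating cells were 0.932%, 0.737% and 1.18% of cortex cells and 0.434%, 0.427% and 0.875% of IM cells, 0.372 ± 0.109 points lower (SD, n = 3). They numbered 9, 8 and 18 cells in IM, and the Bonn cortex value lay below the Hamburg IM value. The edgeR fit of the cell numbers gave an adjusted p of 0.471 for this cluster. Plasmacytoid dendritic cells (pDC), known for type I interferon production, were 0.215%, 1.17% and 0.776% in cortex and 0.193%, 0.160% and 0.438% in IM, where they numbered 3 to 9 cells a library. Monocytes, at 3.29 ± 1.58% and 3.77 ± 1.93%, and ILC2, at 2.03 ± 0.774% and 2.02 ± 0.697%, differed by less than the spread between libraries. The same held for B_cell_1, at 18.2 ± 7.46% and 20.1 ± 4.70%.

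**Figure D2:**
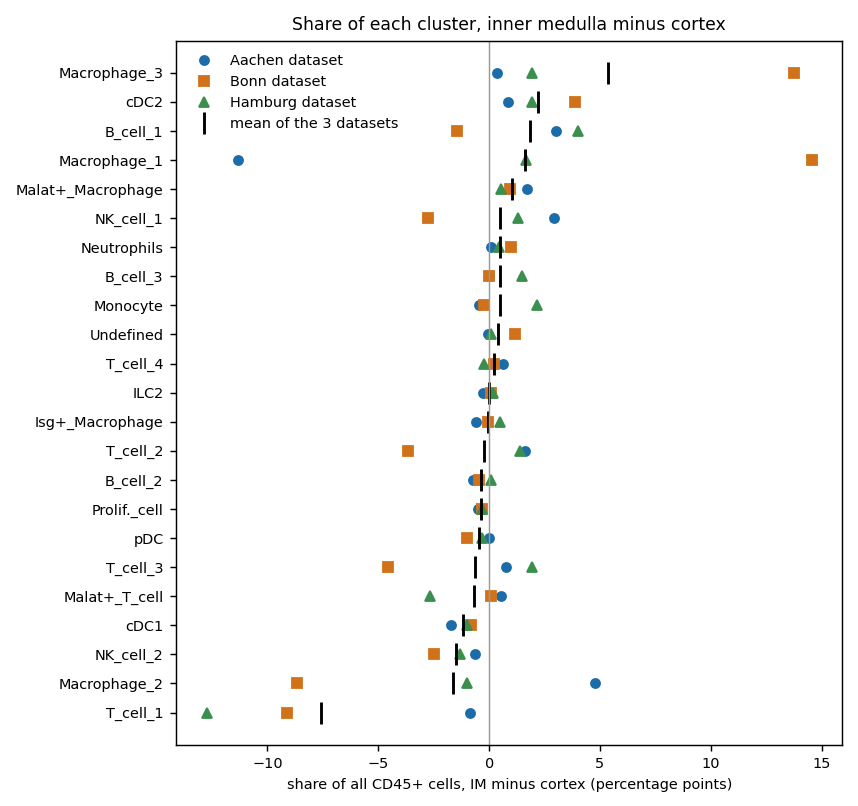
Difference in the share of all cells (IM minus cortex, percentage points, x axis) for the 23 clusters, with 1 point per dataset and the mean. In 9 clusters the 3 points lie on one side of 0, cDC1 and T_cell_1 below it and cDC2 and Macrophage_3 above it.

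Genes were then compared within clusters on UMIs summed per library, for the 11 clusters with at least 20 cells in each cortex and IM library and for 5 classes (T, B and NK cells, cDCs and resident macrophages). A gene was called when its adjusted p, over all genes of that fit, was under 0.05. In these fits each log2 fold change is IM over cortex with the dataset as a block, and levels are in CPM, a gene's UMIs per 1000000 UMIs of the summed library. Over the 11 clusters 79 calls were made, and they were unevenly spread. T_cell_1 gave 16 of 7278 genes tested (0.22%), Monocyte 15 of 6029 (0.249%), Macrophage_1 17 of 6978 (0.244%), NK_cell_1 11 of 3458 (0.318%), cDC2 9 of 4935 (0.182%), B_cell_1 5 of 8537 (0.0586%) and ILC2 4 of 2344 (0.171%). In Macrophage_2 the test called 1 gene (0.02% of 4989) and in T_cell_2 1 gene, Trbv16, a T cell receptor segment (0.0172% of 5813), and in T_cell_3 it called 0 of 3256 (0.0%), with 93 (2.86%) at an unadjusted p under 0.05 and 0 called by DESeq2. Malat+_Macrophage also gave 0 calls of 3407 (0.0%), with 144 genes (4.23%) at an unadjusted p under 0.05 and 1 called by DESeq2. The cDC1 cluster itself could not be fitted, as the Bonn IM library held 13 of its cells.

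Whether the IM effect differed between classes was tested with an interaction term. Of the genes tested, 40 of 9652 (0.414%) passed for T cells against resident macrophages, 103 of 9709 (1.06%) for B cells against resident macrophages and 20 of 9595 (0.208%) for T cells against B cells, many of them immunoglobulin or T cell receptor segments.

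T_cell_1 is a CD4-leaning cluster, with Cd4 at 1.79 and Cd8a at 0.407 per 10000 UMIs, against 0.116 and 7.30 in T_cell_2. All 16 of its called genes had a positive log2 fold change. One of them was Kap, which was at 20.5, 3.79 and 1.59 CPM in cortex and 7.07, 228 and 0 CPM in IM (adjusted p = 7.20e-04), so that it was lower in IM in Aachen and Hamburg and high in the Bonn IM library alone. The other 15 included genes known from regulatory T cells: Foxp3, the transcription factor that defines these cells, Ikzf2, which encodes Helios, Tnfrsf4 (OX40), Tnfrsf9 (4-1BB), Ccr8, a chemokine receptor, and Ebi3, a subunit of interleukin-35. Pdcd1, which encodes the inhibitory receptor PD-1, Tnfsf11 (RANKL) and Cd83 rose as well.

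Ikzf2 was at 143, 88.0 and 32.3 CPM in the Aachen, Bonn and Hamburg cortex and at 145, 217 and 89.3 CPM in IM. The level hardly moved in Aachen and was much higher in Bonn and Hamburg (log2 fold change 1.07 ± 0.22 (SE), adjusted p = 0.0352). Pdcd1 was at 46.1, 45.5 and 37.0 CPM in cortex and 49.5, 95.3 and 154 CPM in IM, so that every IM value exceeded every cortex value (1.44 ± 0.24, adjusted p = 0.00871). Tnfrsf9, a costimulatory receptor, was at 0, 18.5 and 20.6 CPM in cortex and 28.3, 62.9 and 61.8 CPM in IM, again without overlap (1.69 ± 0.30, adjusted p = 0.018). Foxp3 was not counted in either Aachen library, was at 23.6 and 5.82 CPM in the Bonn and Hamburg cortex and reached 73.7 and 20.6 CPM in IM (1.65 ± 0.32, adjusted p = 0.0352). It was held by 28 of 1379 cortex cells and 22 of 645 IM cells of T_cell_1.

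Of the genes that followed the same direction in all 3 datasets, Ebi3 stood at 5.12, 7.16 and 8.99 CPM in cortex and 24.7, 34.2 and 28.8 CPM in IM (1.96 ± 0.39, adjusted p = 0.0352). Ikbke, a kinase of the NF-kB and interferon pathways, stood at 5.12, 20.6 and 16.9 CPM in cortex and 24.7, 57.5 and 42.6 CPM in IM (1.44 ± 0.26, adjusted p = 0.018). For both genes the lowest IM value was above the highest cortex value. Ccr8 went from 0, 30.8 and 109 CPM to 3.53, 88.1 and 188 CPM, and its groups overlapped because the datasets differed in level (1.07 ± 0.21, adjusted p = 0.0352). Cd83, Reep3 and Ctss also rose in every dataset, with log2 fold changes of 1.41, 1.08 and 0.80.

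Other called genes depended on few cells or on part of the datasets. Ccl1, which encodes the ligand of CCR8, had 486 UMIs in the IM cells of T_cell_1, and 5 cells held 97.9% of them. Penk, the enkephalin precursor, had 37 UMIs in 7 IM cells. Tnfrsf4 was lower in the Aachen IM library (128 to 99.0 CPM) and higher in Bonn (34.1 to 212 CPM) and Hamburg (96.8 to 346 CPM), and Tnfsf11 had the same signs. Ccl1, Penk and Tnfsf11 were given here after their values were seen.

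The gene list that holds Tnfrsf4, Foxp3 and Ikzf2 was chosen with earlier results of these data known. It held 12 genes, of which 8 passed the filter on low counts. Of these 8, 3 were called higher (Tnfrsf4, Foxp3, Ikzf2) and 0 lower, and 6 were higher at an unadjusted p under 0.05, against 3.61% of all genes tested. Tnfrsf9, Ccr8 and Ebi3, named above beside them, are not in this list. The list's median log2 fold change was 0.94, and that of all genes tested was 0.0099. The list of chemokine receptors, which does not hold the called gene Ccr8, gave no calls. Of its 8 measured members, 4 were lower (2.35% of all genes tested) and 1 higher (3.61%) at an unadjusted p under 0.05. Ccr9, the gut-homing receptor, was at 35.8, 27.4 and 34.9 CPM in cortex and 21.2, 7.19 and 9.61 CPM in IM (log2 fold change -1.58 ± 0.38, adjusted p = 0.118). Cxcr6 and the integrin gene Itga1, both used as markers of tissue residency, were lower in IM in all 3 datasets and did not pass (log2 fold changes -0.57 and -0.79, adjusted p = 0.324 for each).

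One of the T_cell_1 calls was a member of the marker list of another immune cell type. Cd81, which is in the resident macrophage list, rose from 154, 24.9 and 12.2 CPM to 371, 97.1 and 50.8 CPM (1.73 ± 0.21, adjusted p = 4.17e-04). Of 10 macrophage markers 8 were measured in T_cell_1, and 2 were higher at an unadjusted p under 0.05 (3.61% of all genes tested). Their summed level was 64.5 to 2001 CPM in cortex and 96.1 to 4849 CPM in IM. Ctss, called above, is not in the macrophage list, and the part of macrophage transcripts in its rise was not tested. Without cells that held at least 2 UMIs of another lineage's markers, Cd81 among them by construction, Cd81 in T_cell_1 had a log2 fold change of 0.40 (adjusted p = 0.9998), whereas Pdcd1 in T_cell_1 stayed called (1.42, adjusted p = 0.0171), as did Ikzf2 in T_cell_1 (1.06, adjusted p = 0.0213).

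The number of genes called in T_cell_1 was 9 without those cells, 7 of them among the 16. It was 1 with DESeq2, 2 when fitted on the cortex and IM libraries alone, 0 without the Hamburg dataset, 20 without Aachen and 18 without Bonn, of which 5 were among the 16. Without the Bonn IM library it was 8, of which 3 were among the 16; Pdcd1 in T_cell_1 still passed there (1.62, adjusted p = 0.0205) and Ikzf2 in T_cell_1 did not (0.84, adjusted p = 0.758).

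**Figure D3:**
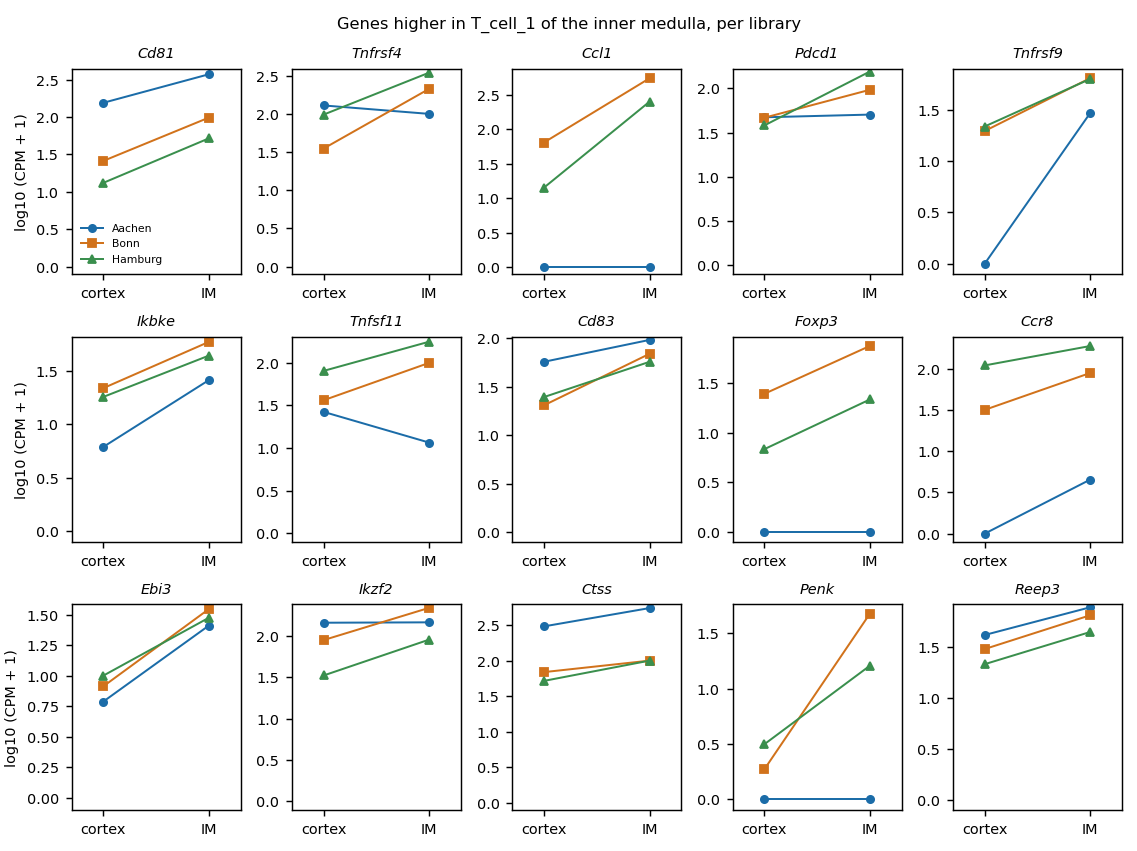
Level of 15 of the 16 genes called higher in the IM cells of T_cell_1, without Kap (y axis, log10 of CPM + 1), 1 point per library, cortex and IM side by side for each dataset. Pdcd1, Tnfrsf9, Ebi3 and Ikbke have every IM point above every cortex point, whereas Foxp3 and Ccl1 are at 0 in both Aachen libraries.

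In the Monocyte cluster, the genes called lower in IM included the interferon-induced genes Isg15, Ifi47 and Ifi205 and the chemokine genes Cxcl10 and Ccl2. Monocytes are blood-derived phagocytes, and interferon-induced genes such as Isg15, Ifi47 and Cxcl10 are switched on in them during antiviral and inflammatory responses. Of the 15 genes called, 10 were lower (0.166% of those tested) and 5 higher (0.0829%). The lower calls also held Gzma, a member of the NK cell marker list (log2 fold change -6.28), and Gdf15 (-2.64). The part of NK cell transcripts in this cluster's calls was not tested. One of the 5 higher genes was Kap, at 17.6, 2.75 and 0 CPM in cortex and 0, 147 and 2.17 CPM in IM (adjusted p = 3.83e-09), and another was the immunoglobulin segment Igkv6-23, both of which are given after their values were seen. Cxcl10, a chemokine that draws T cells bearing CXCR3, was at 406, 55.9 and 598 CPM in the Aachen, Bonn and Hamburg cortex and at 0, 13.2 and 126 CPM in IM. The drop was present in each dataset, the groups overlapped because Bonn was low in both compartments, and the log2 fold change was -2.42 ± 0.27 (SE, adjusted p = 4.07e-12). Its 316 cortex UMIs lay in 30 of 282 cells and its 64 IM UMIs in 8 of 224 cells.

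Isg15, a ubiquitin-like protein, was at 159, 250 and 405 CPM in cortex and 18.9, 81.3 and 228 CPM in IM (-1.18 ± 0.22, adjusted p = 4.34e-04). Ifi47, an interferon-induced GTPase, was at 124, 163 and 155 CPM in cortex and 94.5, 46.1 and 93.3 CPM in IM, all below the cortex values (-1.12 ± 0.27, adjusted p = 0.0215). Ifi205 was at 88.2, 53.2 and 101 CPM in cortex and 0, 19.8 and 36.9 CPM in IM, also without overlap (-1.52 ± 0.38, adjusted p = 0.0385). Ccl2, the chemokine that recruits monocytes through CCR2, was at 547, 41.3 and 853 CPM in cortex and 265, 37.3 and 206 CPM in IM, with hardly any difference in Bonn (-1.43 ± 0.24, adjusted p = 1.12e-05).

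The promoters of 3 of these genes are shown because the genes were called lower and the windows carry a motif of interferon-responsive elements. The sequences are from RefSeq (GRCm38.p6) and run 5′ to 3′ on the gene's strand, from 250 bases before to 50 bases after the start site: Cxcl10 at chr5:92348840-92349139 (minus strand), Isg15 at chr4:156200769-156201068 (minus strand) and Ifi205 at chr1:174031706-174032005 (minus strand). Capitals mark matches to GAAANNGAAA or its reverse complement TTTCNNTTTC; in Isg15 3 matches overlap.
Cxcl10: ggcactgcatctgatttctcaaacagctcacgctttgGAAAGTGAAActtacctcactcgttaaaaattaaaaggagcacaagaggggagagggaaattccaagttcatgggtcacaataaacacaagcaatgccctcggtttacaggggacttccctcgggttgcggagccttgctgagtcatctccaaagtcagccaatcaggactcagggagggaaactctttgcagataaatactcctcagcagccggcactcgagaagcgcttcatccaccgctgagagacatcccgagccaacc
Isg15: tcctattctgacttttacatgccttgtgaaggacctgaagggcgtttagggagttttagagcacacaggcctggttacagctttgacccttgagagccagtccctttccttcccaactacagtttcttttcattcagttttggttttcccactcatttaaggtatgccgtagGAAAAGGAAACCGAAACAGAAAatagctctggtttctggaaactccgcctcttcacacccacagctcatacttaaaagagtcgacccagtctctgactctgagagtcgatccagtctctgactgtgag
Ifi205: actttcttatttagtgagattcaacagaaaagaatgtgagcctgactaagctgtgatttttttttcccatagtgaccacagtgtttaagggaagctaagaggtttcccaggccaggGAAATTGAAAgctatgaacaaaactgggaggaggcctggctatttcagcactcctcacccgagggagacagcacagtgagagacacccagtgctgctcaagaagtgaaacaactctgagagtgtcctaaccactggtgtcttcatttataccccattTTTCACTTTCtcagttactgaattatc

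Such a match was present in 3.44% of all 32851 promoter windows of the table and in at least 1 window of 3.99% of its 27025 genes, and 4 of the 8 genes called lower in IM monocytes that have a window held one, the fourth being Gzma, against 0 of the 1 called higher. The Ifi47 window (chr11:49076337-49076636, plus strand) held no match. A match is a description of the letters only.

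Of the 16 interferon response genes 14 were measured in monocytes, and all 14 had a log2 fold change below 0, with a median of -0.73 against -0.0026 for all genes tested. Of the 14, 2 were called lower (Isg15, Ifi47), 9 were lower at an unadjusted p under 0.05 (2.06% of all genes tested), and 9 were lower in all 3 datasets (9.92% of all genes tested). Ifit3 was next, at 35.3, 97.2 and 97.9 CPM in cortex and 37.8, 17.6 and 62.9 CPM in IM (-1.22 ± 0.34, adjusted p = 0.132). The same list in T cells had 0 calls and a median of -0.037, and in cDC2 0 calls and a median of -0.27, with 2 of 12 measured members lower (1.66% of all genes tested) and 0 higher at an unadjusted p under 0.05. Whether monocytes differed from those clusters was not tested. Of the 24 chemokines and cytokines 15 were measured in monocytes, with 2 called lower (Cxcl10, Ccl2), 0 called higher, 4 lower and 0 higher at an unadjusted p under 0.05, and a median of -0.47.

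Thbs1, which encodes the matrix protein thrombospondin 1, rose from 0, 9.17 and 219 CPM to 113, 19.8 and 835 CPM (1.86 ± 0.27, adjusted p = 1.17e-07), and was held by 14 of 282 cortex cells and 46 of 224 IM cells. Cd14, the lipopolysaccharide co-receptor, was also called higher (0.82 ± 0.20, adjusted p = 0.029) although it was lower in Aachen; it is given after its values were seen. The resident macrophage marker C1qb was called lower (-0.76 ± 0.19, adjusted p = 0.029), and its sign reversed without cells that held UMIs of another lineage. Of 9 measured macrophage markers, 4 were lower at an unadjusted p under 0.05 (2.06% of all genes tested). The summed level of the macrophage markers overlapped, at 3521 to 6282 CPM in cortex and 3125 to 8054 CPM in IM. Their part in the result was not tested.

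The number of genes called in Monocyte was 1 with DESeq2, 3 on the cortex and IM libraries alone, 1 without Hamburg, 5 without Aachen and 20 without Bonn, of which 4 were among the 15. Without the Bonn IM library 14 genes were called, 5 of them among the 15, with Cxcl10 in Monocyte (-2.51, adjusted p = 4.48e-12) and Ccl2 in Monocyte (-1.72, adjusted p = 1.33e-08) but not Isg15 in Monocyte (-0.82, adjusted p = 0.427). Cxcl10 in Monocyte kept its sign without cells that held UMIs of another lineage but was no longer called (-0.87, adjusted p = 0.712), while Isg15 in Monocyte and Ccl2 in Monocyte were still called (-1.04 and -1.83). For this cluster the markers of another lineage were those of T cells, B cells and neutrophils. Why the call of Cxcl10 was lost was not tested.

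As a class, cDCs gave the largest number of calls among the classes, 77 of 7293 genes (1.06%), with 45 higher (0.617%) and 32 lower (0.439%) in IM. One of the 45 was Kap (adjusted p = 2.91e-04). The class sum holds both subsets, and cDC1 made up 54.1 ± 13.0% of cDCs in cortex and 23.4 ± 12.9% in IM (SD, n = 3); the part of this difference in the calls was not tested. Among the 6 cDC1 markers, Xcr1, the receptor that defines the subset, fell from 285, 153 and 237 CPM to 134, 75.0 and 94.5 CPM (-1.16 ± 0.17, adjusted p = 0.00155), and Irf8, its lineage factor, fell as well (-0.82 ± 0.18, adjusted p = 0.0325); 5 of the 6 were lower at an unadjusted p under 0.05 (3.78% of all genes tested). The groups of Xcr1 did not overlap. Of the 6 cDC2 markers, Mgl2 (1.73, adjusted p = 0.00189), Clec10a (0.91, adjusted p = 0.0256) and Cd209a (0.77, adjusted p = 0.0275) rose, and 5 of 6 were higher at an unadjusted p under 0.05 (5.32% of all genes tested).

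Genes of cDC maturation and migration were also among the calls in the class. Ccl17, a chemokine for CCR4-bearing T cells, was at 0, 39.6 and 0 CPM in cortex and 202, 328 and 121 CPM in IM (3.46 ± 0.67, adjusted p = 0.0134), held by 7 of 299 and 38 of 305 cells. Fscn1, the actin bundler of mature dendritic cells, was at 42.1, 53.7 and 110 CPM in cortex and 95.3, 200 and 296 CPM in IM (1.62 ± 0.25, adjusted p = 0.00189), and Socs2 rose with it (1.55 ± 0.30, adjusted p = 0.0128). Of 10 maturation genes 2 were called higher (0.617% of all genes tested) and 5 were higher at an unadjusted p under 0.05 (5.32%). Their median was 0.61 against -0.0049 for all genes. Irf4, a factor of cDC2 development, rose too (1.43 ± 0.26, adjusted p = 0.00792), whereas Tlr3 (-1.34 ± 0.22, adjusted p = 0.00475) and Tlr12 (-1.64 ± 0.34, adjusted p = 0.0211), receptors found in cDC1, fell. The number of genes called in cDCs was 15 without the Bonn IM library, 22 with DESeq2 and 0 without Hamburg.

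Within the cDC2 cluster these genes did not pass. There, Fscn1 had a log2 fold change of 1.13 ± 0.30 (adjusted p = 0.216), Mgl2 1.07 ± 0.24 (adjusted p = 0.0783) and Ccl17 2.98 ± 0.71 (adjusted p = 0.110), each with a higher level in IM in all 3 datasets. The cDC2 fit called 9 genes, 5 higher (0.101% of those tested) and 4 lower (0.0811%). Mmp12, a macrophage elastase, rose from 31.1, 25.3 and 11.3 CPM to 174, 69.9 and 118 CPM (2.06 ± 0.40, adjusted p = 0.0334), without overlap. Anxa3 rose from 0, 24.0 and 22.6 CPM to 69.7, 84.1 and 48.6 CPM (1.73 ± 0.35, adjusted p = 0.0399), and its groups did not overlap either.

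Cd7, a receptor known from T cells and NK cells, fell in cDC2 from 233, 221 and 377 CPM to 174, 53.5 and 123 CPM (-1.62 ± 0.28, adjusted p = 0.0122), each IM value below each cortex value. The authors of the study use Cd7 as a cDC2 marker, apart from those of a subset they name cDC3. Ifitm1, an interferon-induced membrane protein, fell from 62.1, 115 and 188 CPM to 0, 8.73 and 6.95 CPM (-4.07 ± 0.35, adjusted p = 4.01e-07). Its 145 cortex UMIs lay in 9 cells, with 97.4% in 5 of them. Hspb1, a small heat shock protein, was at 62.1, 1.26 and 97.9 CPM in cortex and 69.7, 118 and 331 CPM in IM (2.59 ± 0.53, adjusted p = 0.0399). In the heat shock list 1 of 12 genes was called higher and 6 were higher at an unadjusted p under 0.05 (2.47% of all genes tested).

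The other 4 calls in cDC2 were Fxyd2, a subunit of the sodium pump of the tubule epithelium (higher), Gm42418 (higher) and the neutrophil genes S100a8 and S100a9. The latter pair had 79 and 136 UMIs in 2 cells and 1 cell of the Hamburg cortex library and 1 UMI each in IM. Mmp12 went the other way in other myeloid cells: it fell in Monocyte (from 106, 42.2 and 18.0 CPM to 0, 0 and 8.68 CPM) and in Macrophage_1 (from 905, 836 and 1925 CPM to 682, 251 and 1143 CPM, adjusted p = 0.0429). The difference between these clusters was not tested. The number of genes called in cDC2 was 1 with DESeq2 (Ifitm1), 1 without Hamburg, 14 without Aachen, 3 without cells holding UMIs of another lineage and 4 without the Bonn IM library, where Mmp12 in cDC2, Cd7 in cDC2 and Ifitm1 in cDC2 had adjusted p of 8.67e-04, 0.0559 and 1.15e-07.

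**Figure D4:**
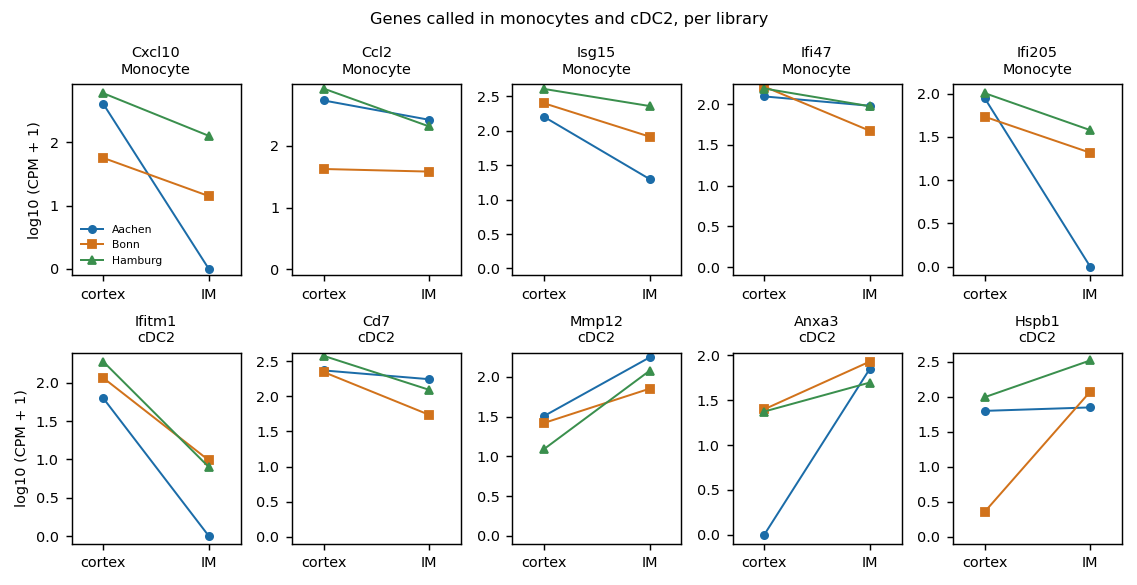
Level of 5 genes in the Monocyte cluster and 5 genes in the cDC2 cluster (y axis, log10 of CPM + 1), 1 point per library, cortex and IM side by side for each dataset. Cxcl10, Isg15 and Ifi205 are lower in the IM library of each dataset in monocytes, and Mmp12 and Anxa3 are higher in each in cDC2.

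The smaller lymphoid clusters gave few calls, and most of these rested on few cells. In ILC2, which are known for interleukin-13 and amphiregulin, Cma1, a mast cell protease, was at 44.5, 108 and 378 CPM in cortex and had 0 UMIs in IM, at least 19.3-fold lower when set against 3 UMIs over the IM group (adjusted p = 0.00287). Its 96 cortex UMIs lay in 5 of 136 cells, and of the 5 markers of mast cells or basophils 1 passed the filter in this cluster, with a log2 fold change of -2.73 that was not called. Ier3, an immediate early gene, had 89 UMIs in cortex and 1 in IM. Nr4a3, a nuclear receptor induced by stimulation, rose from 22.2, 10.8 and 276 CPM to 78.8, 12.9 and 1202 CPM (2.01 ± 0.30, adjusted p = 0.0134). Of the type 2 effector genes 0 of 11 measured were called, and Il1rl1, the interleukin-33 receptor, was at 156, 270 and 317 CPM in cortex and 447, 375 and 420 CPM in IM (0.60 ± 0.25, adjusted p = 0.693). The ILC2 calls numbered 15 without Aachen and 0 without Bonn, without Hamburg or without cells holding UMIs of another lineage.

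NK cells as a class had 0 of 3341 genes called (0.0%), with 129 (3.86%) at an unadjusted p under 0.05 and 0 called by DESeq2. Gzma, which encodes granzyme A, was nonetheless higher in each dataset, from 4202, 7649 and 3072 CPM to 8749, 9753 and 4910 CPM (0.64 ± 0.24, adjusted p = 0.998), as was Ccl5 (0.54 ± 0.22, adjusted p = 0.998). These values move with the larger share of NK_cell_1 among IM NK cells. Within NK_cell_1, 4 genes were called higher and 7 lower. Hspb1 fell from 40.4, 5.29 and 138 CPM to 15.5, 0 and 14.1 CPM, on 34 and 5 UMIs, and Wfdc17 from 162, 31.7 and 175 CPM to 61.8, 0 and 38.8 CPM, on 60 and 15 UMIs. Xcl1, the ligand of XCR1, was higher in Aachen and Bonn and lower in Hamburg. Macrophage transcripts moved with the lower calls: Apoe was at 6342, 183 and 27.6 CPM in cortex and 294, 0 and 307 CPM in IM, and the 6 measured macrophage markers summed to 658 to 7514 CPM in cortex and 71.8 to 1121 CPM in IM. With DESeq2 0 genes were called in NK_cell_1, with 3 called without Hamburg, 6 without Bonn, 4 without the Bonn IM library and 1 without cells holding UMIs of another lineage.

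In B cells 6 of 8911 genes were called (0.0673%). Kap was higher, and the other 5 were immunoglobulin variable segments that were lower in IM: Igkv9-123 and Igkv12-38 had 126 and 159 UMIs in cortex and 0 in IM (at least 27.9-fold and 35.2-fold lower, against 3 UMIs over the group), and Igkv1-99, Ighv3-8 and Ighv13-2 fell in Bonn and Hamburg and had 0 UMIs in Aachen. The 5 segments were held by 7 to 13 of 1760 cortex B cells. Of 17 immediate early genes in B cells, 0 were called and 3 were higher at an unadjusted p under 0.05 (1.01% of all genes tested), with Junb at 3255, 278 and 2775 CPM in cortex and 3777, 628 and 2915 CPM in IM (log2 fold change 0.50, adjusted p = 0.999999). The T cells as a class had 5 calls of 8957 (0.0558%), all higher in IM: Cd81 and Ikzf2, which were also called in T_cell_1, Kap, the immunoglobulin segment Igkv6-25, and S100a9, whose 151 UMIs in IM lay almost wholly (99.3%) in 5 cells.

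Kap, the kidney androgen-regulated protein of the proximal tubule, was called higher in IM in 8 of the 9 fits in which it was tested. In T cells it was at 21.1, 2.12 and 1.27 CPM in cortex and 7.19, 208 and 0.378 CPM in IM, so that the Bonn IM library alone was high and Aachen and Hamburg were lower in IM. In B cells it was at 11.2, 5.60 and 1.59 CPM in cortex and 0, 260 and 5.32 CPM in IM. In resident macrophages it was higher in IM in all 3 datasets, from 10.3, 3.26 and 1.04 CPM to 20.5, 124 and 9.84 CPM. Without the Bonn IM library Kap was called in 0 of the 2 fits that could still test it, with a log2 fold change of 2.49 in resident macrophages (adjusted p = 0.7996) and -0.90 in T cells (adjusted p = 0.999). The list of interstitial fibroblasts was also high in that library in some cell types. It stood at 0.566 per 10000 UMIs in resident macrophages against 0 to 0.0305 in the other 5 libraries and at 0.127 in cDCs against 0 to 0.0147. This did not hold in Malat+_Macrophage, at 0.347 in Bonn IM and 1.19 in Bonn cortex, or in Monocyte, at 0 in Bonn IM and 0.786 in Aachen cortex. In B and NK cells the list was at 0 in Bonn IM. In T cells the endothelial list stood at 0.465 per 10000 UMIs in the Bonn IM library and at 0.258 to 0.3997 in the other 5, and the collecting duct list at 0.237 and at 0.0690 to 0.177. The ranges over the other 5 libraries include Hamburg, whose low levels cannot be set directly against those of Aachen and Bonn.

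**Figure D5:**
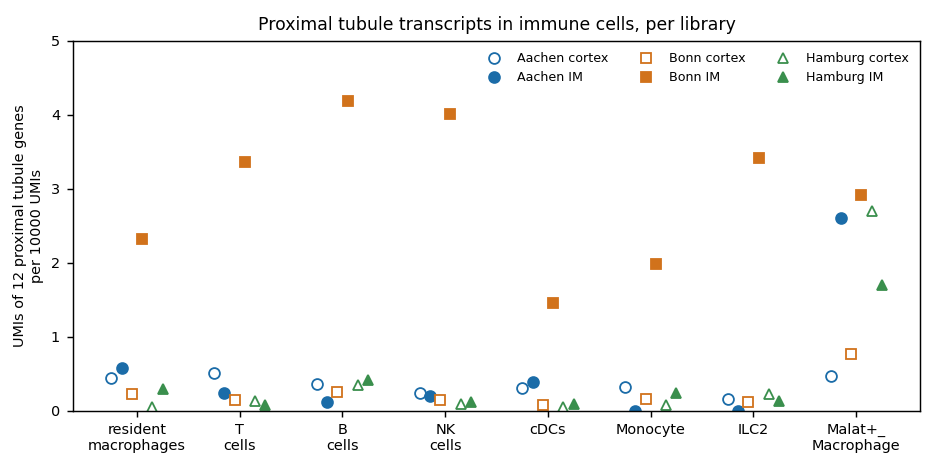
Summed level of 12 proximal tubule markers (per 10000 UMIs, y axis) in each cell class and library. The Bonn IM library lies above the other libraries in the T cells (3.36), B cells (4.18), NK cells (4.01) and cDCs (1.46). In Malat+_Macrophage it (2.91) lies close to Hamburg cortex (2.69) and Aachen IM (2.61).

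The lists of osmotic response genes (8) and of hypoxia and glycolysis genes (20) had 0 called members in each of the 11 clusters and in T, B and NK cells and cDCs, and at most 2 members in either direction at an unadjusted p under 0.05. Of all genes, 0.0 to 1.06% were called in those fits, so lists of this size would hold about 0 calls at the background share, and nothing is read from the count. In Monocyte the medians of the log2 fold changes were 0.043 over 6 measured osmotic response genes and 0.099 over 15 measured hypoxia and glycolysis genes, against -0.0026 for all genes tested. In cDC2 they were -0.0066 over 6 and 0.11 over 12, against 0.0052. The resident macrophages, which are not the main subject here, had 17 of 8687 genes called (0.196%), 11 higher and 6 lower. Gm42418, a transcript that overlaps ribosomal RNA sequence, was called higher in Monocyte, cDC2 and ILC2, but its level differed between datasets far more than between compartments: in Monocyte it was at 70.6, 20742 and 35650 CPM in cortex and 75.6, 42866 and 41351 CPM in IM.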

How the data were processed

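Single cells sorted for CD45 were measured in 3 kidney compartments at 3 facilities. The authors deposited 1 table of expected counts (UMIs per gene and cell, whole in Aachen and Bonn, not whole in Hamburg) with the facility, compartment and cluster of each cell. According to the submitters' notes and the study's methods, reads were aligned to mm10 with Cell Ranger, cells were filtered by their number of genes in Seurat, and clusters were named with SingleR and known markers; the cells in the table held 201 to 3999 genes and at most 9.12% mitochondrial counts. No cells were removed here and no doublet caller was run. As an alternative, cells holding at least 2 UMIs of markers of another lineage (T, B, resident macrophage or neutrophil) were left out, 2687 cells of cortex and IM. Macrophage markers removed no macrophages, monocytes or cDCs, and NK cell markers were not used. The cut was the same at every depth and took 8.96% of the Aachen cortex cells and 26.6% of the Bonn cortex cells.

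For each library, UMIs were added up by cluster, for clusters with at least 20 cells in every cortex and IM library (11 clusters), and by class (5), then rounded, filtered with filterByExpr on the full design, scaled with TMM and tested with edgeR 4.0.16 (R 4.3.3) by the quasi-likelihood test, with facility and compartment as terms and OM libraries included. Benjamini-Hochberg adjustment ran over all genes of a fit. DESeq2 1.42.0 was an alternative, as were DESeq2 size factors, no filter, the 6 cortex and IM libraries alone, no facility term and leaving out each facility. Shares were tested with edgeR on cell numbers and by exact permutation in Python 3.11.15 with SciPy 1.17.1. Wilson intervals (95%) and limits for counts of 0 (3 counts) cover counting error only. Libraries of a facility deviated together: correlations of the deviations from the compartment means over 11956 genes were 0.850, 0.766 and 0.855 within facilities and -0.756 to 0.440 between them, which is why the facility was kept as the pairing.

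Genes were named by a rule: for each fit, the 10 largest changes a direction among called genes of one sign in all 3 datasets, the 3 smallest p where under 5 were called, called list members and up to 3 others by p, and kidney markers that passed the filter in T or B cells. The clusters, gene lists and tests were chosen with earlier results of these data known. On simulated counts, in which a known set of genes was changed, the test recovered 70% of 2-fold and 94% of 4-fold changes in T_cell_1 with 19 false calls (7278 genes), 42% and 86% in Monocyte with 0 (6029 genes), and 56% and 89% in cDC2 with 11 (4935 genes). In the classes false calls numbered 18 in resident macrophages, 31 in T cells, 21 in B cells, 14 in NK cells and 14 in cDCs. False calls are a share of the calls made on the simulated counts, not of all genes tested. The number of simulated calls is not given here, so that share cannot be read from these values. Among the fits simulated, only Monocyte, with 0 false calls, shows the adjusted p threshold of 0.05 holding its false call rate. For the other fits simulated this is not shown, and their calls carry that limit.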

Additional observations from a re-analysis of the deposited data

Results flagged for a closer look

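Whether the IM effect differed between cell classes was tested with an interaction term in edgeR's quasi-likelihood test over the sums of both classes, with Benjamini-Hochberg adjustment. For B cells against resident macrophages 103 of 9709 genes passed (1.06%), 82 with a larger log2 fold change in B cells and 21 with a smaller one. Of the 103 genes 38 were immunoglobulin segments, 5 were among those called in resident macrophages and 0 among those called in B cells. Rasgrp1, Ahnak and Hopx led the others by p.

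For T cells against resident macrophages 40 of 9652 genes passed (0.414%), 34 with a larger log2 fold change in T cells and 6 with a smaller one. Of the 40 genes 5 were immunoglobulin segments, 2 of which, Igkv17-121 and Igkv6-25, had the smallest p. Trbv13-2, Il7r, the interleukin-7 receptor, and Hopx led the others by p. For T cells against B cells 20 of 9595 genes passed (0.208%), 12 larger in T cells and 8 smaller, of which 14 were immunoglobulin segments; S100a9 and Cd81 led the others. Transcripts typical of one class are present in the other at a low level, and their part in these counts was not tested.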

How the results depend on the processing

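Called genes numbered 17 in resident macrophages, 5 in T cells, 6 in B cells, 0 in NK cells, 77 in cDCs and 79 over all clusters. Without the facility as a replicate block, 0 genes were called in each class, over all clusters and in each of the 3 interactions, where the pairing had given 103 (B cells and resident macrophages), 40 (T cells and resident macrophages) and 20 (T and B cells). With DESeq2 the counts were 3, 0, 0, 0, 22 and 5 in the order given first, and without the filter on low counts 279, 67, 63, 7, 180 and 334. With DESeq2 size factors T cells gave 2. On the cortex and IM libraries alone the 5 classes gave 2, 1, 10, 4 and 51, the interaction of T cells and resident macrophages 3, and the shares of cells per cluster 1. Leaving out a facility in turn gave 0 to 207, 0 to 16, 2 to 18, 0 to 18, 0 to 76 and 40 to 101; 0 to 2 for the shares (T cells gave 9 without Aachen); and 3 to 182, 12 to 157 and 15 to 27 for the interactions of T cells and resident macrophages, B cells and resident macrophages, and T and B cells. Without cells holding UMIs of another lineage, resident macrophages gave 31, T cells 1 and all clusters 46. Without the Bonn IM library, an alternative chosen after seeing the data, resident macrophages gave 4, NK cells 1 and cDCs 15. Without the filter 125 genes passed in the interaction of T cells and resident macrophages. The cause was not tested. The sign of 2 named genes reversed: Gm42726 in Macrophage_2 with DESeq2 (1.09) and C1qb in Monocyte without cells holding UMIs of another lineage (0.33). Among the named genes, 54 lost their call with DESeq2, where 21 were unchanged in sign and call. Without Hamburg 55 lost it and 10 were unchanged, and without the Bonn IM library 56 lost it and 28 were unchanged. Without the facility as a block 75 lost it and 11 were unchanged. Shares rest on 3 pairs, for which exact p cannot go below 0.25, and clusters with few cells, such as pDC and cDC1, were not tested for genes.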
